A study of Mus musculus with 35 samples.

Results

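The epidermal lipid barrier enzymes are 9 genes, Abca12, Alox12b, Aloxe3, Elovl4, Ugcg, Pnpla1, Cyp4f39, Tgm1 and Tgm3, chosen by symbol from the 22830 gene symbols counted in mouse skin wounds. All 9 were found in both tables of counts. The wounds came from Col5a1CKO mice (Col1a2CreERT with both Col5a1 alleles floxed) and from littermates without Cre that carried the same floxed alleles and are called WT. Both genotypes received tamoxifen, and in Col5a1CKO mice the Cre driver limits deletion to cells in which the Col1a2 enhancer was active. Male and female mice of 8 to 12 weeks on a B6 background were given a full-thickness excision on the back, and a 6 mm punch from the middle of the wound or scar was sequenced as bulk RNA. At day 14 there were 7 WT wounds, 7 Col5a1CKO wounds and 3 Col5a1CKO wounds injected with cultured WT skin fibroblasts on day 3. By the study's methods PBS was the control for the fibroblasts, and wounds that did not get them are called wounds without fibroblasts. Day 19 was sampled with 3 wounds of each genotype. A separate set held 4 WT wounds with vehicle, 4 Col5a1CKO wounds with vehicle and 4 Col5a1CKO wounds with cilengitide, an inhibitor of integrins αvβ3 and αvβ5 injected daily at 20 mg/kg from the day before wounding, all harvested at day 14. The labels do not state that each wound came from a separate animal, and the study's methods describe each n as separate biological replicates. The p-values measure the spread between these samples.

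The outer skin barrier is made by keratinocytes as they leave the basal layer, produce keratins 1 and 10 and finally cornify. In that passage they fill lamellar bodies with glucosylceramides, bind very long ω-hydroxylated ceramides to a protein shell, and cross-link that shell with transglutaminases. Human loss of several of these genes causes ichthyosis, a disease of scaling and water loss. ELOVL4 lengthens fatty acids to the very long chains used in skin ceramides, CYP4F39 belongs to the family that adds the ω-hydroxyl group, and PNPLA1 esterifies that group with linoleate. ALOX12B and ALOXE3 then act in sequence on the linoleate, UGCG glucosylates ceramide, and ABCA12 carries the lipids into lamellar bodies. Tgm1 and Tgm3 encode transglutaminases, TGM1 being membrane-bound and TGM3 activated by proteolysis. UGCG is made in most cell types, whereas the products of the other genes are best known from stratified epithelia and hair follicles.

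In build NCBI37/mm9, used for the counts of the fibroblast and time-course libraries, Alox12b (chromosome 11, 68970491 to 68983294) and Aloxe3 (chromosome 11, 68939398 to 68962617) are neighbours on the plus strand. Pnpla1 (28995356 to 29027253) and Cyp4f39 (32605404 to 32630265) lie on the plus strand of chromosome 17. Abca12 lies on chromosome 1 from 71289664 to 71461484 (minus strand), Elovl4 on chromosome 9 from 83672300 to 83699912 (minus strand) and Ugcg on chromosome 4 from 59202129 to 59235705 (plus strand). Tgm1 is on chromosome 14 from 56318846 to 56332329 (minus strand) and Tgm3 on chromosome 2 from 129838085 to 129876135 (plus strand).

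Promoters are shown because 8 genes of the set moved together across wounds and Ugcg did not, as described below. RefSeq promoter windows of 300 bases, from 250 before to 50 after the start in build GRCm38.p6, were matched for 8 of the 9 genes, and Aloxe3 had none. Both strands were searched for TGANTCA (AP-1), AACNGGTT (grainyhead), GGGCGG (GC box) and TATAAA, and matches are in capitals. In 3 of the 4 windows printed here the strand is plus, and Abca12 is read from the minus strand of chr1:71414861-71415160. Alox12b is at chr11:69156822-69157121, Pnpla1 at chr17:28858161-28858460 and Ugcg at chr4:59189300-59189599.
Abca12: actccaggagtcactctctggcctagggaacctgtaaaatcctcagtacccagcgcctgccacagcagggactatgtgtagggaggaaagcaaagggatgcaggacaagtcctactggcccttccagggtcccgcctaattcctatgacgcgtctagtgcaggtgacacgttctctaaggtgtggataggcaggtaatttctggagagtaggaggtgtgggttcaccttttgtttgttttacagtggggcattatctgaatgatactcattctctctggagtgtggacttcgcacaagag
Alox12b: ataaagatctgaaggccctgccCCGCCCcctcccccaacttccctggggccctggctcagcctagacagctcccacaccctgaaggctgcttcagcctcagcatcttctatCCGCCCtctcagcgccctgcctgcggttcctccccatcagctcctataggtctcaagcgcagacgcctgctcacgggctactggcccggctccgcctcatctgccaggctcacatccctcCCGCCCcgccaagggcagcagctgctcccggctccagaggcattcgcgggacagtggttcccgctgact
Pnpla1: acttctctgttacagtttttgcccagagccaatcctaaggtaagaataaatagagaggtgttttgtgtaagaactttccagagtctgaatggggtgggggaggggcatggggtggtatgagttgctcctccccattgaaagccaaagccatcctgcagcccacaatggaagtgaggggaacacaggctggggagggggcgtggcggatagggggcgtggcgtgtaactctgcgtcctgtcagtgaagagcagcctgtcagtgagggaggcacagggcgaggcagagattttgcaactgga
Ugcg: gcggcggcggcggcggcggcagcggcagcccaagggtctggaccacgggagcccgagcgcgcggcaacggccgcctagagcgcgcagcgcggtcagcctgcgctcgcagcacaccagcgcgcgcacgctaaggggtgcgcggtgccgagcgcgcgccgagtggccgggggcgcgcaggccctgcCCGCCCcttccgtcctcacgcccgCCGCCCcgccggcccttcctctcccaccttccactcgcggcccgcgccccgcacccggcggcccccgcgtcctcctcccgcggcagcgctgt

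No window of the 8 genes held the AP-1 or grainyhead letters, which occur in 7.81% and 2.09% of 32851 windows. GGGCGG, read on either strand, occurs in 35.7% of all windows, and among the 8 genes it was in those of Alox12b, Elovl4, Ugcg and 1 of the 2 Tgm1 windows. TATAAA, in 13.6% of all windows, was in that of Tgm3. The windows differed most in CpG content. Ugcg had 53 CpG dinucleotides and 81.3% GC and Elovl4 35 and 71.0%, against 6 to 15 CpG in the other 6 genes and a median of 7 over all windows. A match is a run of letters and not a shown binding site.

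**Figure D1:**
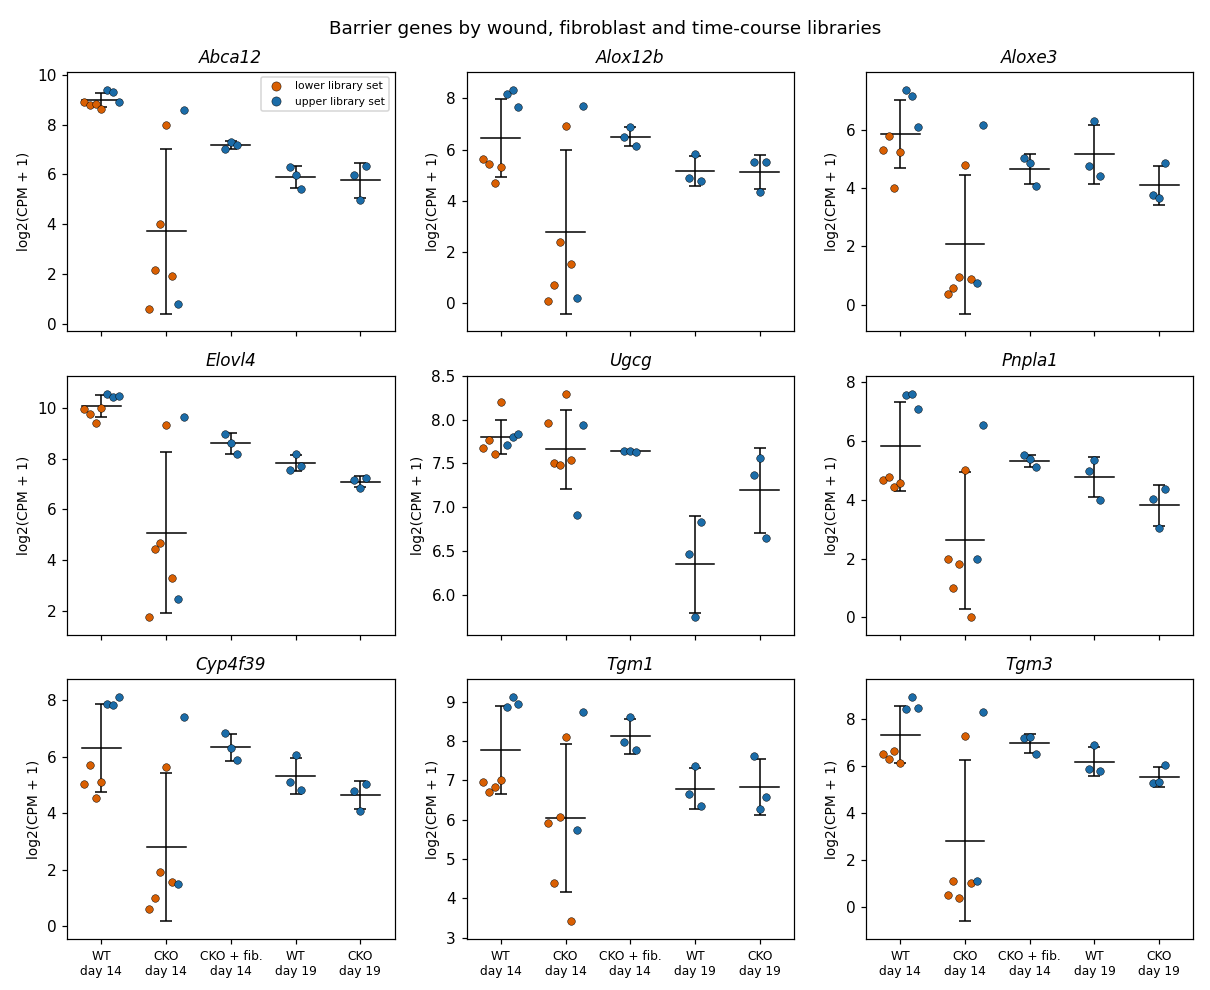
Level of each of the 9 genes in every wound of the fibroblast and time-course libraries, as log2(CPM + 1), with 1 point per wound, coloured by library set, and the mean ± SD of each group in black. At day 14, in each panel but that of Ugcg, most Col5a1CKO points lie near the bottom and 2 lie far above the other 5.

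Levels are given as counts scaled to library size by edgeR's TMM method (CPM), or per kilobase of transcript (RPKM) where genes are compared with each other. Total counts were 15043531 to 35700325 per library in the fibroblast and time-course table and 51211600 to 68266760 in the cilengitide table. The 23 libraries of the first table fall into 2 sets by the difference between GC-rich and GC-poor genes. Replicates a to d (WT) and a to e (Col5a1CKO) of day 14 form the lower set. The upper set has the other day 14 wounds without fibroblasts, namely WT e, f and g with Col5a1CKO f and g, besides those with fibroblasts and those of day 19. Sex also moves with the groups in the upper set at day 14, where the 3 WT wounds had 60.3 to 70.3 CPM of the Y-linked Ddx3y and the Col5a1CKO wounds, with or without fibroblasts, had at most 0.306. In the lower set the targeted gene Col5a1 ranged over 170 to 663 CPM in Col5a1CKO wounds, below the WT wounds at 846 to 2386 CPM, and in the upper set the ranges overlapped (231 to 352 CPM and, for WT, 347 to 380). Over both sets it differed by -1.43 (SE 0.49, unadjusted p = 0.0108, adjusted p = 0.0757 by edgeR). Col5a1CKO and WT wounds also overlapped at day 19 (617 to 1092 CPM and, for WT, 515 to 5425). With vehicle they overlapped too (252 to 1319 CPM and, for WT, 449 to 2657). Col5a1 differed by -1.695 (SE 0.868, adjusted p = 0.272 by edgeR) at day 19 and by -1.173 (SE 0.764, adjusted p = 0.232) with vehicle.

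In WT wounds at day 14, Elovl4 was the most abundant of the 9 per length of transcript. Its RPKM was 151 to 310, above the highest value of each other gene, with a median of 234. Ugcg (median 39.4 RPKM), Abca12 (37.9) and Tgm1 (31.1) came next and overlapped with each other. Tgm3 (16.3), Aloxe3 (15.1), Alox12b (14.7) and Cyp4f39 (13.8) followed with overlapping ranges, and Pnpla1 had the lowest median (4.23 RPKM, range 3.16 to 27.7). The order below Elovl4 differed between the library sets. In the upper set Tgm1 (103 to 123 RPKM) lay above each of the other 7 in WT wounds, and Alox12b (56.1 to 86.9), Cyp4f39 (55.1 to 68.6) and Tgm3 (52.6 to 75.2) lay above Ugcg (35.2 to 40.2) and Abca12 (37.6 to 51.2).

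The library set was large beside these levels. In the 4 WT wounds of the lower set Alox12b was 25.1 to 48.1 CPM and in the 3 of the upper set 200 to 322 CPM. Cyp4f39 was 22.5 to 50.6 and 228 to 273 CPM in the same sets, and Pnpla1 20.7 to 26.6 and 137 to 196 CPM. Aloxe3, Elovl4, Tgm1 and Tgm3 also did not overlap between the sets, whereas Abca12 did (398 to 485 and 476 to 678 CPM), as did Ugcg (194 to 293 and 208 to 227 CPM). Transcript GC was 52.9% to 56.5% for Alox12b, Aloxe3, Pnpla1, Cyp4f39 and Tgm1, 49.9% for Tgm3 and 43.6% to 46.1% for Abca12, Elovl4 and Ugcg, against a median of 49.4% over genes. The upper WT wounds also had more Krt10 (26810 to 70640 CPM against 5805 to 11710) and less Col1a1 (2481 to 2942 against 5172 to 17920). The part of GC content and of tissue makeup in the difference between sets was not tested.

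The first question was how the barrier genes stood in Col5a1CKO wounds at day 14. Within the Col5a1CKO group 7 genes ran from about WT levels to near 0, Tgm1 covered a shorter range, and Ugcg lay within its WT range or near it. Abca12 was 398, 476 and 678 CPM (lowest, median, highest) in WT and 0.517, 3.43 and 390 CPM in Col5a1CKO wounds. It was the 1 gene of the 9 whose groups did not overlap, and of all genes tested 1.72% were lower and 2.31% higher without overlap. In the Col5a1CKO group, wounds d and g had 251 and 390 CPM of Abca12, and the other 5 had 0.517 to 15.3 CPM.

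Wounds d and g were also the 2 highest for each of the other genes but Ugcg. Elovl4, the elongase, was 676, 1026 and 1507 CPM in WT and 2.35, 20.5 and 786 CPM in Col5a1CKO wounds, where d and g had 642 and 786. Tgm3 was 69.1, 98.2 and 488 CPM in WT and 0.307, 1.20 and 317 CPM in Col5a1CKO. Alox12b and Aloxe3, the lipoxygenases, had medians of 48.1 and 53.8 CPM in WT and of 1.90 and 0.850 CPM in Col5a1CKO wounds. The medians of Pnpla1 were 26.6 CPM in WT and 2.92 CPM in Col5a1CKO wounds and those of Cyp4f39 50.6 and 2.00 CPM, and for these 2 genes wounds d and g overlapped with WT.

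Tgm1 was still 9.69 to 65.8 CPM in Col5a1CKO wounds a, b, c, e and f, in which Tgm3 was 0.307 to 1.21 CPM. Ugcg was 194, 217 and 293 CPM in WT and 119, 186 and 314 CPM in Col5a1CKO wounds, and the groups overlapped throughout.

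With edgeR's quasi-likelihood test and Benjamini-Hochberg adjustment over all 14367 genes tested, none of the 9 passed an adjusted p of 0.05 with a 2-fold change, where 5.57% of all genes were called higher and 2.71% lower. None had an unadjusted p under 0.05, and DESeq2 also called 0. All 9 log2 fold changes were below 0, with a median of -1.88 against -0.03 over all genes tested. They ran from -2.41 (SE 1.22, adjusted p = 0.217 by edgeR) for Abca12 to -0.09 (SE 0.20, adjusted p = 0.822) for Ugcg. Within the lower set the log2 fold change of Abca12 was -3.04 and within the upper set -1.52. Neither set gave a call among the 9, and in the upper set 8.82% of genes were called higher and 0.411% lower. Of all calls at day 14, 67.2% were higher, and 80.5% with scaling by library size only.

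Basal keratin, like 8 of these genes, was highest in wounds d and g of the Col5a1CKO group. Krt14, the keratin of basal keratinocytes, was 6964 to 35870 CPM in WT wounds. In Col5a1CKO d and g it was 13890 and 18460 CPM, and in the other 5 it was 9.35 to 1095 CPM. Krt10, made in the layer above, was 3141 and 15940 CPM in d and g and 8.63 to 36.1 CPM in the others, against 5805 to 70640 in WT. In such bulk tissue, fewer keratinocytes and less RNA of a gene per keratinocyte cannot be told apart.

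**Figure D2:**
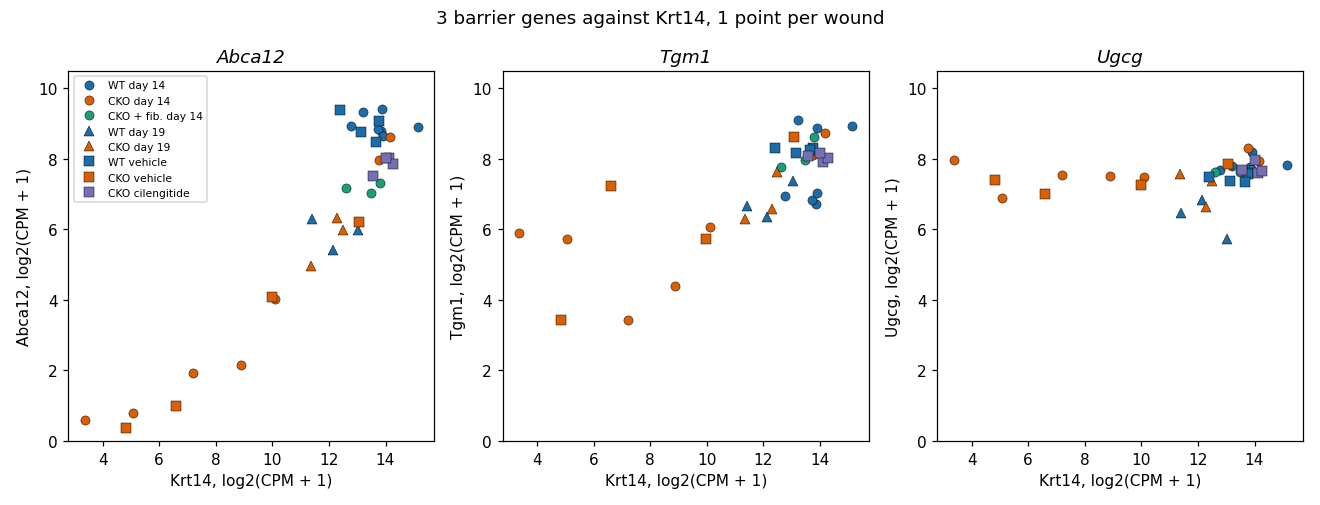
Abca12, Tgm1 and Ugcg against Krt14, both as log2(CPM + 1), with 1 point per wound of all 35, the tables being scaled separately. Abca12 is near 0 where Krt14 is lowest and higher, with a wide spread, where Krt14 is high. Tgm1 lies well above 0 where Krt14 is lowest. Ugcg ranges from 52.5 to 314 CPM and is not lowest where Krt14 is lowest.

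Across the 23 fibroblast and time-course wounds, the correlation of log2(CPM + 1) with Krt14 was 0.93 for Abca12, 0.95 for Elovl4 and 0.72 for Tgm1, but 0.13 for Ugcg. With the mean Z score of the other 8 genes it was 0.87 to 0.98 for each gene other than Ugcg, for which it was 0.15. Within the lower set of 9 wounds the latter value was 0.51 for Ugcg and at least 0.81 for the others, and within the upper set of 14 wounds it was 0.46 and at least 0.89. These are descriptions over wounds that share library sets and the scaling to library size. By Pearson's r with the mean Z score of the 9, among 14344 genes whose mean reached 1 CPM, the most similar genes were Ptk6 (0.986), Slc28a3 (0.982), Ephx3 (0.981), Atp6v0a4 (0.981) and Aqp3 (0.981). EPHX3 is an epoxide hydrolase and AQP3 a water and glycerol channel, both known from epidermis.

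Other gene groups gave few calls at day 14. Of 26 barrier lipid partners tested, which make, modify or carry ceramides and fatty acids, 3 were lower and 0 higher, with a median log2 fold change of -1.69. These were Elovl6, a fatty acid elongase (-2.36), Sptlc1, a subunit of serine palmitoyltransferase (-1.35), and Abhd5, the lipase cofactor (-1.15). Of 14 genes of the cornified envelope and other transglutaminases, 1 was higher and 1 lower. Tgm2, the widely made tissue transglutaminase, was higher by 2.92 on the log2 scale (SE 0.43, adjusted p = 0.00369 by edgeR) and Ivl, the envelope protein involucrin, was lower (-3.78). None of 8 suprabasal keratinocyte markers passed (median -2.85), nor did any of 8 basal markers (median -1.58). Hair follicle markers stood apart, with 9 of 10 tested lower (median -5.81). Within the upper set, with 3 WT and 2 Col5a1CKO wounds, 1 of 11 was called lower (median -8.54).

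Some markers of other cells were higher in the Col5a1CKO wounds. Of 7 leukocyte markers 3 were called higher, and their summed level was 3077 to 22370 CPM in Col5a1CKO against 1567 to 11450 in WT wounds. Of 4 endothelial markers 3 were higher. The 6 fibroblast markers summed to 31740 to 128400 CPM in Col5a1CKO and 8519 to 83990 in WT wounds, with 1 called higher. No defining marker of keratinocytes among Krt14, Krt5, Krt10 and Krt1 was at 0 in any wound of this comparison. Whether the makeup of the tissue accounts for the levels of the 9 genes was not tested.

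At day 19 the log2 fold changes between the genotypes were nearest to 0 for Abca12, Alox12b and Tgm1. Abca12 was 77.2, 62.7 and 41.4 CPM in WT a, b and c and 62.4, 30.4 and 79.1 CPM in Col5a1CKO a, b and c, and the groups overlapped. Elovl4 was 188, 286 and 208 CPM in WT and 141, 114 and 151 CPM in Col5a1CKO wounds. It was lower in all 3 Col5a1CKO wounds without overlap, as were 18.4% of all genes tested (16.4% were higher), at a log2 fold change of -0.67 (SE 0.21, unadjusted p = 0.0169, adjusted p = 0.149 by edgeR). Ugcg was 87.7, 52.5 and 113 CPM in WT and 164, 188 and 99.1 CPM in Col5a1CKO, 2 wounds being above each WT wound, at 0.89 (SE 0.40, adjusted p = 0.231 by edgeR).

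None of the 9 genes was called at day 19 by edgeR, where 0.0198% of 15135 genes were higher and 0.0% lower, and DESeq2 called 0 of the 9 as well. In all, 1 of the 9 (Elovl4) had an unadjusted p under 0.05. Of the log2 fold changes 6 were below 0 and 3 above, and the median was -0.63 against -0.01 over all genes. The other values were -1.15 for Aloxe3, -0.93 for Pnpla1, -0.68 for Cyp4f39, -0.63 for Tgm3, -0.01 for Abca12, 0.06 for Alox12b and 0.19 for Tgm1. In each fit without 1 wound the direction was kept for Aloxe3, Pnpla1, Cyp4f39, Tgm3, Elovl4 and Ugcg, and it turned in at least 1 such fit for Abca12, Alox12b and Tgm1. The titles place no fibroblasts in these Col5a1CKO wounds, although another label names WT fibroblasts for them, and the titles were followed.

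At day 19 Krt14 ranged from 2717 to 8415 CPM in WT wounds, with 2609 to 5747 CPM in the Col5a1CKO wounds. Ddx3y was 42.6 CPM in WT a and at most 0.291 CPM in the other day 19 wounds. Sex was thus not balanced between the genotypes here, and its part was not tested. The 11 hair follicle markers summed to 493.2, 6613 and 9246 CPM (lowest, median, highest) in WT wounds but 12.9 to 23.5 CPM in the Col5a1CKO wounds, and no gene of that list was called. In a model of both days, none of the 9 genes differed in its genotype effect between days among 15954 genes tested, of which 0.0% were called in either direction, and DESeq2 called 0 of the 9. Each of the 9 differences was above 0, that is, less negative or more positive at day 19. Ugcg had the smallest p, at 0.95 (SE 0.40, unadjusted p = 0.0300, adjusted p = 0.752 by edgeR).

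From day 14 to day 19, Abca12, Elovl4 and Ugcg fell in WT wounds. Abca12, the lamellar body transporter, went from 398 to 678 CPM at day 14 to 41.4 to 77.2 CPM, a log2 fold change of -3.04 (SE 0.32, adjusted p = 0.00184 by edgeR). Elovl4 went from 676 to 1507 CPM to 188 to 286 CPM (-2.26, SE 0.33, adjusted p = 0.00417). Ugcg went from 194 to 293 CPM to 52.5 to 113 CPM (-1.36, SE 0.31, adjusted p = 0.0282). The groups did not overlap for these 3 genes, and of all genes 11.8% were lower and 7.55% higher without overlap.

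They were the 3 of the 9 called lower, against 4.25% of 15180 genes, and 0 were called higher (1.5%). All 9 log2 fold changes were below 0, with a median of -1.48 against 0.00 over all genes. With scaling by library size only 2 were called, and the share of all calls that were higher went from 26.0% to 71.0%, with a shift of the median gene to 0.43. Within the upper library set, 3 WT wounds of each day, 8 of the 9 were called lower, against 10.1% of 15059 genes (14.2% higher), and Aloxe3 was the exception (-1.50, adjusted p = 0.0850 by edgeR). There Abca12 changed by -3.18, Alox12b by -2.76, Elovl4 by -2.53, Pnpla1 by -2.50, Cyp4f39 by -2.42 and Tgm1 by -2.02. Sex moves with day in that set, and its part was not tested. The 3 WT wounds of day 14 had 60.3 to 70.3 CPM of the Y-linked Ddx3y. At day 19 WT a had 42.6 CPM and WT b and c had 0.192 and 0.0983 CPM. Of the 3 day 19 wounds, leaving out a or c left 1 gene called and leaving out b left 2, with 74 to 321 genes called lower in all.

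Krt14 had a log2 fold change of -1.58 in the same comparison (adjusted p = 0.116 by edgeR) and Krt10 one of -2.42 (adjusted p = 0.158), so neither passed. The suprabasal markers gave 4 of 9 lower, led by Dsc1, a desmosomal cadherin (-4.26), and the barrier lipid partners 7 of 26, among them Lipn, an epidermal lipase (-3.44), Elovl7 (-2.71) and Sdr9c7, which acts on the oxidized linoleate (-2.54). No fibroblast marker passed over all WT wounds, where their log2 fold changes ran from -2.24 to 1.54. Within the upper set alone, 4 of 6 fibroblast markers were higher at day 19. In Col5a1CKO wounds none of the 9 was called from day 14 to day 19, by edgeR or DESeq2, with none at an unadjusted p under 0.05, where 1.87% of 15327 genes were called higher and 3.85% lower. All 9 overlapped between the days, and of all genes 7.74% were higher and 9.86% lower without overlap. Their log2 fold changes were -0.74 to 0.26 with SEs of 0.31 to 2.05. Ddx3y was 205 to 332 CPM in Col5a1CKO a to d of day 14. It was at most 0.70 CPM in e to g and at most 0.291 CPM at day 19. Sex thus moves with day here too, and its part was not tested.

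WT fibroblasts were injected to ask whether they change the repair of Col5a1CKO wounds. The wounds with fibroblasts lay inside the range of the Col5a1CKO wounds without them for each of the 9 genes, where 0.364% of all genes were higher and 1.7% lower without overlap. Abca12 was 129, 160 and 144 CPM in wounds a, b and c with fibroblasts, below Col5a1CKO d and g and above the other 5. Elovl4 was 503, 394 and 290 CPM, Tgm1 249, 392 and 219 CPM and Cyp4f39 112, 79.1 and 57.6 CPM. Krt14 was 11460, 14210 and 6226 CPM in the same wounds, and Krt10 4465, 3008 and 1592 CPM.

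Against Col5a1CKO wounds without fibroblasts, none of the 9 passed among 15659 genes, of which 0.0% were called higher or lower by edgeR, 0 of the 9 had an unadjusted p under 0.05 and DESeq2 called 0. Of 9 log2 fold changes 8 were above 0, with a median of 0.91 against -0.04 over all genes, and SEs of 0.97 to 1.95 for those 8. Ugcg was -0.10 (SE 0.27). Within the upper set, with 2 wounds without fibroblasts, the median was -0.08 and 5 of the 9 were below 0, so the direction depended on which wounds without fibroblasts were compared. The 3 wounds with fibroblasts are all in the upper set and 5 of the 7 without are in the lower. Ddx3y was at most 0.306 CPM in the wounds with fibroblasts. Without them it was 205 to 332 CPM in Col5a1CKO a to d and at most 0.70 CPM in e to g. Sex thus moves with treatment too, and its part was not tested.

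Against WT wounds at day 14, the wounds with fibroblasts were lower in Abca12 and Elovl4. Abca12 differed by -1.69 (SE 0.26, adjusted p = 0.00366 by edgeR) and Elovl4 by -1.37 (SE 0.33, adjusted p = 0.0303), and neither gene overlapped with WT, where 10.1% of all genes were lower and 10% higher without overlap. These 2 of 9 compare with 2.06% of 15317 genes called lower, and 0 of the 9 were called higher (3.77%). DESeq2 also called 2. The median of the 9 was -0.61 against 0.03 over all genes, and the same WT wounds served in the day 14 comparison of the genotypes above. Without any 1 wound with fibroblasts, 1 gene stayed called. Ddx3y was 60.3 to 310 CPM in WT a, b, e, f and g and at most 0.498 CPM in WT c and d. In the wounds with fibroblasts it was at most 0.306 CPM, and the part of sex was not tested.

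Within the upper set 7 of the 9 were called lower, against 11.2% of 15132 genes (19.8% higher). Pnpla1 then differed by -1.98, Abca12 by -1.91, Aloxe3 by -2.15, Elovl4 by -1.71, Alox12b by -1.40 and Cyp4f39 by -1.41. Tgm1 was -0.67 (adjusted p = 0.0508 by edgeR), and Ugcg did not pass. In that set 8 of 9 suprabasal markers and 11 of 14 cornified envelope genes were lower too, 2 of 8 basal markers were lower, and 6 of 6 fibroblast and 6 of 7 leukocyte markers were higher. Sex and genotype cannot be told apart in that set.

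Several late keratinocyte genes were lower in the wounds with fibroblasts, and the basal keratin Krt14 did not pass. Over all 7 WT wounds Krt14 differed by -0.45 (adjusted p = 0.661 by edgeR) while Dsg1a, a desmoglein of the upper layers, differed by -2.61, Dsc1 by -2.57, Hrnr, a late envelope protein, by -3.74, and Flg2, a filaggrin relative, by -3.45. Of 27 barrier lipid partners, 3 were called lower: Lipn (-2.25), Elovl7 (-1.82) and Sdr9c7 (-1.16). Relative to Krt14 of the same wound, Abca12 had log2 ratios of -6.48 to -5.43 with fibroblasts and -6.24 to -3.84 in WT wounds, which overlapped.

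**Figure D3:**
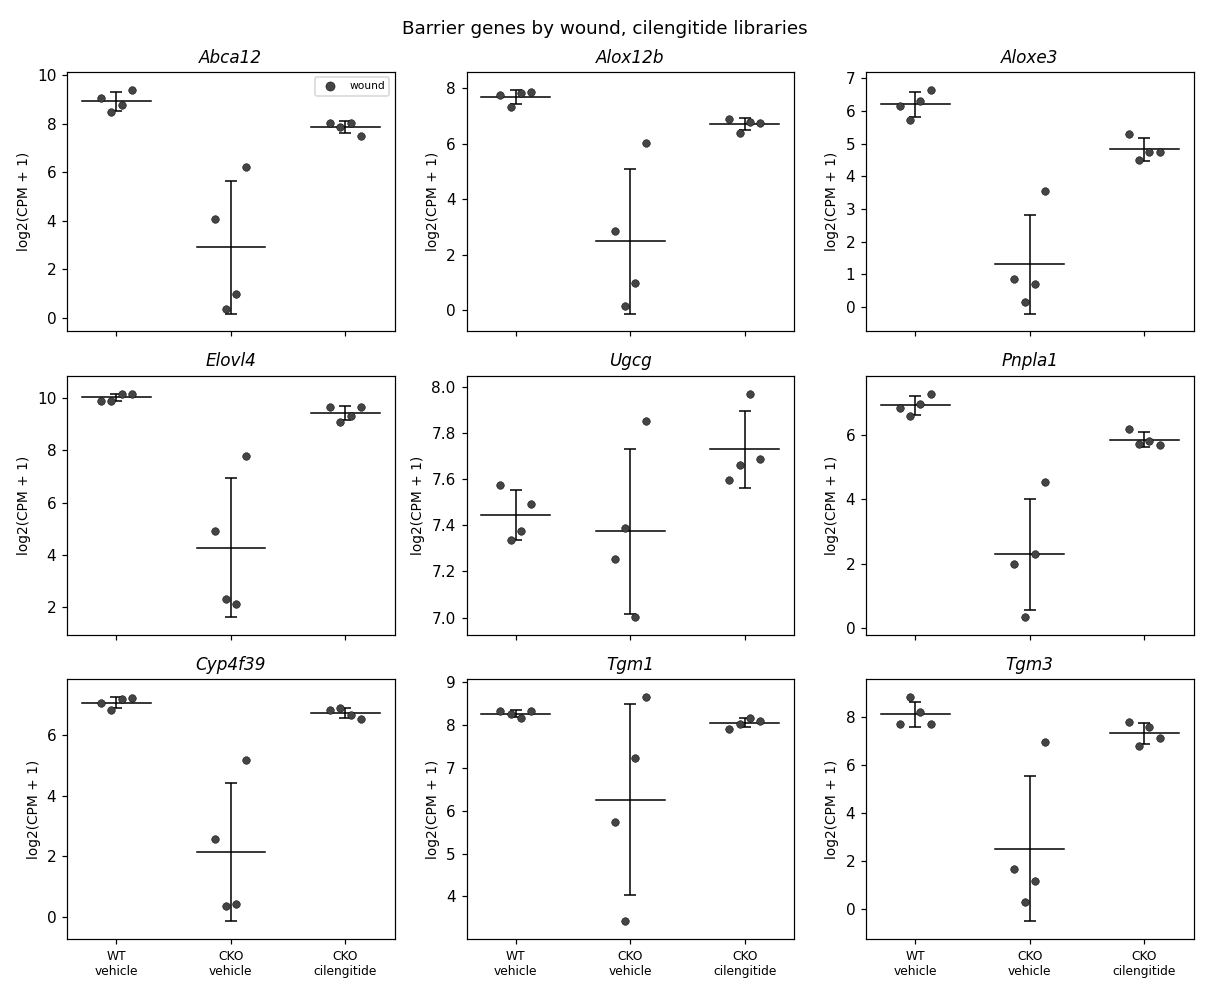
Level of each of the 9 genes in every wound of the cilengitide libraries, as log2(CPM + 1) on axes fitted to each gene, with 1 point per wound and the mean ± SD of each group. The Col5a1CKO vehicle wounds lie below every wound of both other groups for 6 genes and overlap with the cilengitide wounds for Tgm3, Tgm1 and Ugcg, and the cilengitide wounds lie below every WT wound for 5 genes.

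In the cilengitide libraries, each Col5a1CKO wound with vehicle was below each WT wound for most of the barrier genes. Abca12 was 535, 354, 437 and 673 CPM in WT wounds 1 to 4 and 16.0, 0.290, 0.969 and 73.6 CPM in Col5a1CKO wounds 1 to 4. Elovl4 was 959, 943, 1130 and 1147 CPM in WT and 28.9, 3.94, 3.32 and 217 CPM in Col5a1CKO wounds. Pnpla1, the transacylase, was 114, 94.2, 123 and 154 CPM and 2.95, 0.262, 3.94 and 22.0 CPM. Each Col5a1CKO wound was below each WT wound for these 3 genes, with wound 4 the highest of its group.

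Aloxe3 ranged from 52.0 to 99.7 CPM in WT wounds and from 0.111 to 10.7 CPM in those of Col5a1CKO mice, and Alox12b from 161 to 233 and from 0.0967 to 64.0 CPM. For Cyp4f39 the WT range was 113 to 147 CPM and the Col5a1CKO range 0.304 to 35.3 CPM, and for Tgm3 they were 207 to 452 and 0.207 to 123 CPM. These 4 did not overlap either, which makes 7 of the 9, where 26.1% of all genes were lower and 23.4% higher without overlap. Tgm1 overlapped, with 318, 302, 286 and 318 CPM in WT and 52.1, 9.75, 149 and 397 CPM in Col5a1CKO wounds, wound 4 being above every WT wound. Ugcg also overlapped, at 161 to 190 CPM in WT against 127 to 230 CPM in Col5a1CKO wounds.

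By edgeR with Benjamini-Hochberg adjustment, 4 of the 9 were called lower and 0 higher, against 13.4% and 17.5% of 15434 genes. These were Aloxe3 (log2 fold change -4.66, SE 1.30, adjusted p = 0.0203), Abca12 (-4.49, SE 1.54, adjusted p = 0.0429), Pnpla1 (-4.09, SE 1.12, adjusted p = 0.0187) and Elovl4 (-4.08, SE 1.35, adjusted p = 0.0378). Cyp4f39 (-3.74, adjusted p = 0.0610), Alox12b (-3.59, adjusted p = 0.0922), Tgm3 (-3.24, adjusted p = 0.156) and Tgm1 (-1.04, adjusted p = 0.358) did not pass, and Ugcg was -0.06 (SE 0.19, adjusted p = 0.814). The median of the 9 was -3.74 against 0.02 over all genes. DESeq2 called 7, those without overlap.

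The number called moved with the wound left out. Without Col5a1CKO wound 4 it was 7 of the 9, without Col5a1CKO wound 2 or 3 it was 3, and without Col5a1CKO wound 1 or any 1 WT wound it was 2. In wound 4 Krt14 was 8594 CPM, within the WT range of 5429 to 13910, and Krt10 was 329 CPM against 19330 to 41900. In wounds 1 to 3 Krt14 was 1003, 27.6 and 96.7 CPM and Krt10 78.4, 5.32 and 8.60 CPM. In wound 4, then, Krt14 was within the WT range, Krt10 and 7 of the barrier genes were below theirs, and Tgm1 and Ugcg were above. Wound 2 had under 1 CPM of both Xist and Ddx3y. None of the 4 Col5a1CKO vehicle wounds had more than 1.54 CPM of Xist, the RNA of the inactive X chromosome, whereas 2 of the 4 wounds in each of the WT vehicle and cilengitide groups had 138 to 187 CPM. Sex thus moves with these groups, and its part in the comparisons with vehicle wounds of Col5a1CKO mice was not tested.

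Related lists also had calls, most of them lower. Of 27 barrier lipid partners, 14 were lower and 3 higher, with a median of -2.37. The lower genes were led by Fa2h, the fatty acid 2-hydroxylase (-8.27), Elovl3, a hair and sebaceous gland elongase (-7.46), and Pla2g2f, a suprabasal phospholipase (-5.87). The higher ones were Sgms2, a sphingomyelin synthase (5.05), Alox15, a lipoxygenase of myeloid cells (3.55), and Asah1, the lysosomal ceramidase (1.29). In sterol synthesis 10 of 12 genes were lower (median -1.68), among them Dhcr7 (-2.94) and Mvk (-2.13).

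Of 14 cornified envelope and transglutaminase genes 8 were lower and 1 higher, with Flg2 (-10.03), Lor (-8.48) and Ivl (-6.73) furthest down and Tgm2 higher by 3.98. Suprabasal markers gave 4 of 9 lower and basal markers 3 of 8. Hair follicle markers gave 11 of 11 lower, and 5 of 7 leukocyte markers were higher and 1, Cd3e, lower. Gata3 (-5.96), Grhl1 (-4.32) and Ppara (-3.42) led the 7 of 15 epidermal differentiation factors that were lower, and Cebpb was the 1 that was higher (2.07). Summed leukocyte markers were 4268 to 47640 CPM in Col5a1CKO and 310 to 2655 CPM in WT vehicle wounds.

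**Figure D4:**
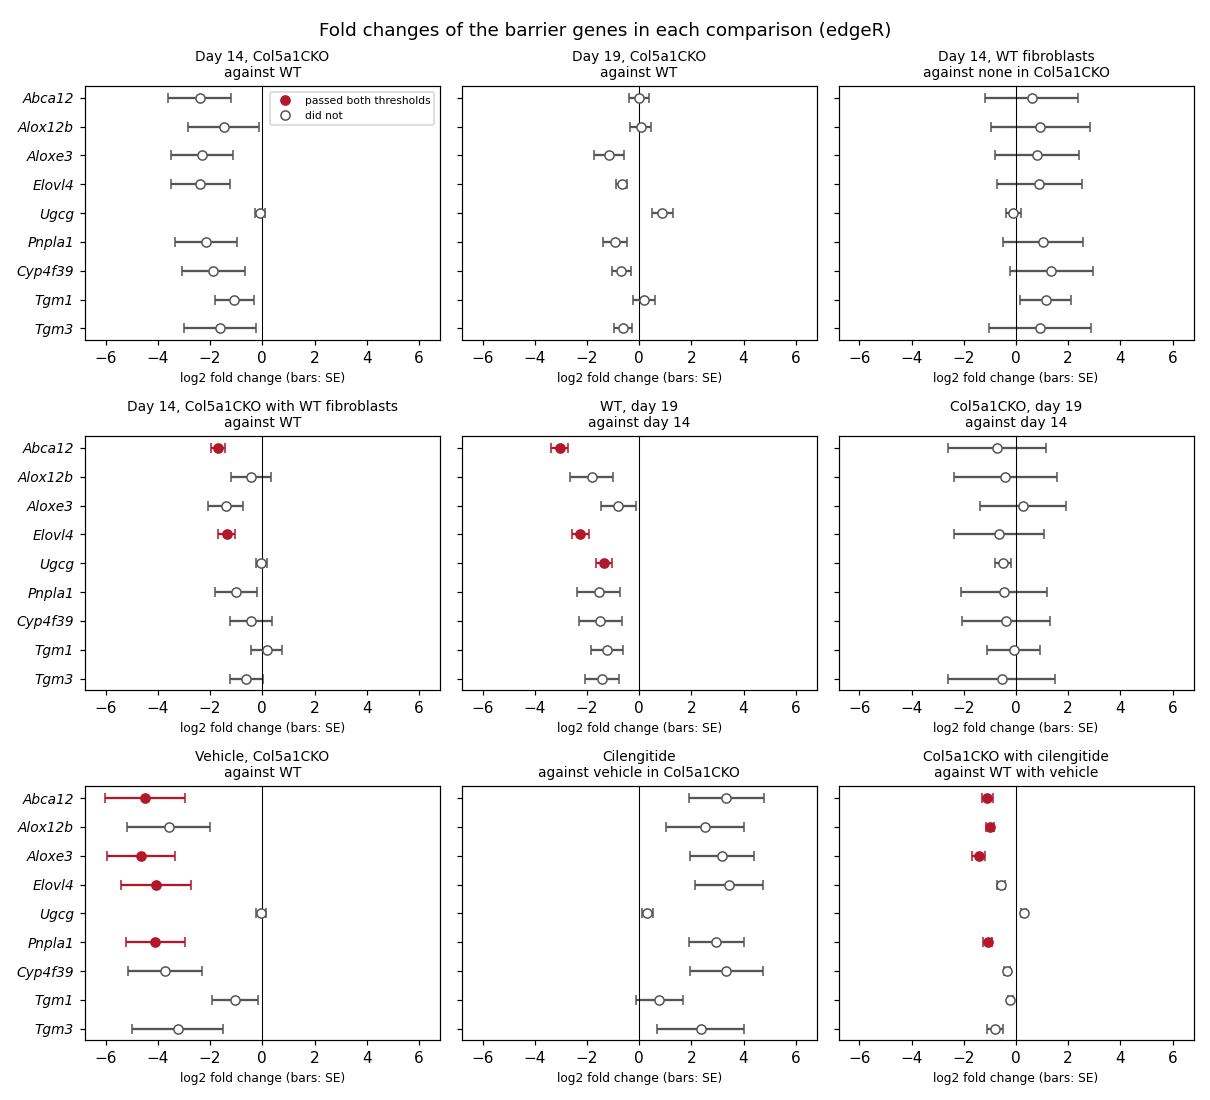
Log2 fold change of each of the 9 genes in 9 comparisons by edgeR, with bars of 1 standard error. Filled points passed an adjusted p of 0.05 and a 2-fold change, and in both comparisons with the Col5a1CKO vehicle wounds the bars are long for each gene but Ugcg, which is near 0.

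Cilengitide was given to ask whether blocking these integrins alters Col5a1CKO repair. Abca12 was 260, 231, 259 and 181 CPM in cilengitide wounds 1 to 4, and each was above each Col5a1CKO vehicle wound. Elovl4 was 799, 543, 642 and 814 CPM, Pnpla1 71.1, 51.6, 55.1 and 50.6 CPM and Aloxe3 38.5, 21.5, 26.0 and 26.0 CPM. Each of these also exceeded every Col5a1CKO vehicle wound, as did Alox12b and Cyp4f39. That makes 6 of the 9 without overlap, where 18.9% of all genes were higher and 12.7% lower without overlap. Tgm3 (111 to 219 CPM), Tgm1 (239 to 286) and Ugcg (192 to 250) overlapped with vehicle, in each case through vehicle wound 4.

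None of the 9 passed by edgeR against vehicle, where 6.48% of 15563 genes were called higher and 6.59% lower. All 9 log2 fold changes were above 0, with a median of 2.95 against -0.06 over all genes, and 4 had an unadjusted p under 0.05, as had 2981 of all genes in the higher and 3307 in the lower direction. The 4 were Elovl4 (3.44, SE 1.31, adjusted p = 0.0884), Cyp4f39 (3.34, SE 1.40, adjusted p = 0.114), Aloxe3 (3.18, SE 1.22, adjusted p = 0.0891) and Pnpla1 (2.95, SE 1.06, adjusted p = 0.0752). Abca12 was 3.34 (SE 1.45, adjusted p = 0.124), Tgm1 0.77 (SE 0.89) and Ugcg 0.32 (SE 0.20). DESeq2 called 5 of the 9 higher. Without vehicle wound 4 edgeR called 7, without vehicle wound 2 it called 1, and without any other wound 0.

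Other lists had calls in this comparison. Sterol synthesis gave 10 of 12 higher (median 1.55) and the barrier lipid partners 7 of 27 (median 1.44), with Fa2h (8.18), Elovl3 (6.74) and Elovl6 (3.85) the largest. Hair follicle markers gave 9 of 11 higher, sebaceous gland markers 5 of 8, and suprabasal markers 4 of 9, among them Krt10 (6.58) and Krt1 (6.09). Tgm2 was lower by 2.40 on the log2 scale, and 3 of 7 leukocyte markers were lower. Krt14 did not pass (2.75, SE 1.52, adjusted p = 0.211 by edgeR).

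The cilengitide wounds remained below WT vehicle wounds for part of the set. Aloxe3 differed by -1.42 (SE 0.25, adjusted p = 0.0193 by edgeR), Abca12 by -1.10 (SE 0.22, adjusted p = 0.0212), Pnpla1 by -1.09 (SE 0.18, adjusted p = 0.0193) and Alox12b by -1.01 (SE 0.16, adjusted p = 0.0193). These 4 of 9 compare with 3.43% of 15514 genes called lower, and 0 of the 9 were called higher (5.15%). Elovl4 passed the adjusted p but not the 2-fold change (-0.58, adjusted p = 0.0422). Those 5 genes did not overlap, as 15.6% of all genes were lower without overlap.

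Ugcg stood on the other side, with 192 to 250 CPM in the cilengitide wounds, each above the WT range of 161 to 190 CPM, as 14.4% of all genes were higher without overlap. Its log2 fold change was 0.29 (SE 0.10, adjusted p = 0.0759 by edgeR). Tgm3 (-0.80), Cyp4f39 (-0.34) and Tgm1 (-0.21) had unadjusted p-values under 0.05 and adjusted p-values of 0.0715 to 0.0989. The median of the 9 was -0.80 against -0.01 over all genes.

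Leaving out cilengitide wound 2, 3 or 4 left 0 of the 9 called, with adjusted p-values from 0.0517 upward and 1 to 3 genes called in all. Leaving out WT wound 4 left 1 and WT wound 3 left 3, and leaving out cilengitide wound 1 or WT wound 1 or 2 left 4. A fit of all 3 groups together called none of the 9, in which the wide spread of the Col5a1CKO vehicle wounds is shared, and DESeq2 called 3. All 4 changes were under 3-fold.

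Keratins differed from each other in the same comparison. Krt14 was 12120 to 19870 CPM with cilengitide and 5429 to 13910 CPM in WT (0.69, adjusted p = 0.143 by edgeR), whereas Krt10 was 6412 to 20420 and 19330 to 41900 CPM (-1.74, adjusted p = 0.0396). Relative to Krt14 of the same wound, Abca12 had log2 ratios of -6.43 to -5.98 with cilengitide, -5.19 to -3.01 in WT and -6.87 to -5.97 in Col5a1CKO vehicle wounds, so cilengitide wounds overlapped with vehicle and not with WT. Relative to Krt10 the ratios were -6.30 to -4.77 with cilengitide, -6.59 to -5.77 in WT and -4.20 to -2.16 in vehicle wounds, so there cilengitide wounds overlapped with WT and not with vehicle. Other lists with calls in this comparison were the suprabasal markers (5 of 9 lower), the cornified envelope genes (5 of 14 lower) and the barrier lipid partners (4 of 26 lower and 1, Sgms2, higher). Lipn (-1.65), Alox12, an epidermal lipoxygenase (-1.39), and Acer1, the alkaline ceramidase of epidermis (-1.29), led the lower partners. Sterol synthesis had 1 of 12 lower (Dhcr7, -1.01).

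Over the 12 cilengitide wounds the correlation with the mean Z score of the other 8 genes was 0.97 to 0.99 for Abca12, Alox12b, Aloxe3, Elovl4, Pnpla1, Cyp4f39 and Tgm3, 0.83 for Tgm1 and 0.52 for Ugcg. By the same measure as above, over 13878 genes, the most similar genes were Klk8, a kallikrein protease (0.998), Cyp2b10 (0.995), Sdr9c7 (0.995), Tmem40 (0.994) and Pof1b (0.994). These wounds fall into 3 groups that differ in keratin level and share the scaling to library size.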

How the data were processed

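The authors deposited raw counts per RefSeq transcript for 23 fibroblast and time-course libraries, with transcript lengths, and counts per gene symbol for 12 cilengitide libraries. Per the study's methods, single-end reads of stranded libraries were aligned by HISAT2 to NCBI37/mm9, reads being aligned once, and counted on RefSeq exons by SeqMonk; whether this covers the cilengitide libraries is not given in the sources used here. HISAT2 and mm9 also stand in the submitters' processing notes. Reads shared with near copies are thus left out, which can lower a gene in all libraries alike.

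Of several rows with one symbol, the one with the largest total was used, which gave 22830 symbols. Rows with no gene name (30 and 1, with 0.0492% and 5.91e-05% of the counts) were left out. Each pair of groups was fitted with edgeR 4.0.16 in R 4.3.3 (TMM scaling, filterByExpr at its minimum count of 10 and a robust quasi-likelihood test). Calls needed a change of at least 2-fold with an adjusted p (Benjamini-Hochberg) below 0.05. No filter removed any of the 9 genes. RPKM was computed from the deposited lengths in the first table alone. Tables in Python 3.11.15 (pandas 2.3.3, numpy 2.4.6) and figures in matplotlib 3.10.9 were made from these values, and the tests were tried on simulated data.

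Replicate letters of the labels were checked as pairs. After removal of group means, same-letter wounds correlated at -0.445 to 0.566 at day 14, -0.404 to -0.313 at day 19, -0.168 to 0.387 for wounds with against without fibroblasts and 0.015 to 0.368 for wounds with fibroblasts against WT, so the letters were not used as pairs. No 2 libraries of the same group agreed within counting noise (lowest chi-square per degree of freedom 31.4).

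The 9 genes and the lists were chosen with earlier results of these data known. Named beside the 9 are Krt14, Krt5, Krt10, Krt1, Col5a1, up to 3 called genes per direction with the largest change in a list, and the 5 genes most like the mean of the 9. Col1a1, Xist and Ddx3y were added after their values were seen. A gene that this rule would name is not reported here. Cers3, Hmgcs1, Csta1 and Flg of the lists were not found by symbol. Alternatives were DESeq2 1.42.0, other scalings and filters, all groups in one fit, 3-fold, summed rows per symbol, the library set as a covariate or either set alone, the replicate letter as a block, and leaving out single wounds. Single wounds were left out only of groups of 3 or 4. DESeq2 and 3-fold were tried because the study's methods name them.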

Additional observations from a re-analysis of the deposited data

Results flagged for a closer look

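In groups of 4 or 7 wounds, 45 combinations of gene and group were looked at, and 10 held 1 wound far from the rest. Chance gives about 1 in 20 such groups for normally distributed values. The rule was applied to CPM itself, and Tgm3 in Col5a1CKO vehicle wounds ran from 0.207 to 123 CPM. The 10 of 45 thus cannot be set against that rate, and the combinations share wounds. Vehicle-treated Col5a1CKO wound 4 accounted for 6 of the 10. It had 64.0 CPM of Alox12b against at most 6.18 in the other 3 wounds, 10.7 CPM of Aloxe3 against at most 0.819, and 217 CPM of Elovl4 against at most 28.9. It also had 22.0 CPM of Pnpla1 against at most 3.94, 35.3 CPM of Cyp4f39 against at most 4.97, and 123 CPM of Tgm3 against at most 2.17. Krt14 was 8594 CPM in that wound and 27.6 to 1003 CPM in the other 3.

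Day 14 Col5a1CKO wound g had 70.4 CPM of Aloxe3 against at most 26.6 in the other 6 wounds, 93.4 CPM of Pnpla1 against at most 31.5, and 170.0 CPM of Cyp4f39 against at most 48.7. Krt14 was 18460 CPM there. Wound d, second for each of these genes, is in the lower library set and g in the upper. WT wound d of day 14 had 293 CPM of Ugcg against 194 to 227 CPM in the other 6. The part of keratinocyte content and of library set in these values was not tested.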

How the results depend on the processing

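The direction of the log2 fold changes was kept in most alternatives, and the exceptions are given here. With the replicate letter as a block, 1 of the 9 genes was called at day 14, 8 for wounds with against without fibroblasts and 5 for wounds with fibroblasts against WT, where Alox12b (1.22), Pnpla1 (0.68), Cyp4f39 (1.23) and Tgm3 (0.45) turned. The letters do not pair the wounds, and 1 of 7 letters correlated best with itself at day 14. Counts of the 9 genes called moved as follows. For wounds with fibroblasts against WT they were 0 with all groups in one fit, 7 with library set as covariate, 7 in the upper set, 1 at 3-fold and 1 to 1 without single wounds. For WT between days they were 1 with all groups in one fit, 8 with the covariate, 8 in the upper set and 1 to 2 without single wounds. For vehicle they were 7 by DESeq2 and 2 to 7 without single wounds. For cilengitide against vehicle they were 5 by DESeq2, 1 by library size only, 3 with all groups and 0 to 7 without single wounds. For cilengitide against WT they were 0 with all groups, 0 at 3-fold and 0 to 4 without single wounds.

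Signs turned near 0 in some fits and further from 0 in others. By library size only, Ugcg was 0.068 at day 14, 0.015 for wounds with against without fibroblasts and 0.083 against WT, and at day 19 Alox12b was -0.37 and Tgm1 -0.25, where the median gene moved to -0.39. With all groups, Alox12b at day 19 was -0.028. Without the covariate, wounds with against without fibroblasts gave Abca12 0.60, Alox12b 0.94, Aloxe3 0.81, Ugcg -0.10, Pnpla1 1.05, Cyp4f39 1.35 and Tgm3 0.91. With the covariate, Abca12 was -0.44, Alox12b -0.16, Aloxe3 -0.50, Ugcg 0.13, Pnpla1 -0.27, Cyp4f39 -0.048 and Tgm3 -0.30. In the upper set they were -0.35, -0.079, -0.42, 0.20 and -0.19 for the first 5 and -0.22 for Tgm3. Against WT, Ugcg was 0.018 and Tgm1 -0.65 with the covariate, and Tgm1 -0.67 in the upper set. In Col5a1CKO wounds between days, Aloxe3 was -1.05 with the covariate and -0.94 in the upper set. Among the fibroblast and time-course libraries, no day 14 wound without fibroblasts was left out singly, Col5a1CKO d and g included. Without single wounds the range at day 19 was -0.29 to 0.29 for Abca12, -0.14 to 0.41 for Alox12b and -0.34 to 0.47 for Tgm1. It was -0.14 to 0.28 for Tgm1 in wounds with fibroblasts against WT, -0.25 to 0.49 for Aloxe3 and -0.61 to 0.16 for Tgm1 between days in Col5a1CKO wounds, and -0.18 to 0.048 for Ugcg with vehicle. The cause of these changes was not tested.

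Groups of 3 or 4 wounds and the wide spread of Col5a1CKO wounds limit what the tests can call. Genes called lower for cilengitide against WT ranged from 0 to 797 over the alternatives.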
